A study of Mus musculus with 12 samples.

Results

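The genes described here act in the fusion of myoblasts and in the plasma membrane of the muscle cell: *Mymk*, *Mymx*, *Myof*, *Dysf*, *Cav3*, *Cdh2*, *Cdh15*, *Cdon*, *Boc*, and *Ncam1*. They are a list of gene names, picked with earlier results of these data known, and these 10 genes are 10 of the 55536 mouse genes in the deposited count table. All 10 were among the 14499 genes that passed the filter on low counts. RNA-seq was performed on C2C12GFP cells, a mouse myoblast line expressing green fluorescent protein, which were differentiated in low-serum medium on bare plates (control) or on a coating of Collagen I, of fibronectin, or of Geltrex™, a basement membrane matrix made mainly of laminin, collagen IV, and entactin. Each group had 3 samples, giving 12 in all. The sources used here do not say whether the samples of a group were separate cultures, so p-values measure only the spread between these samples, which may be technical, and they do not give the day on which this RNA was taken. All groups share 1 cell line.

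Skeletal muscle fibers form when myoblasts leave the cell cycle, adhere to one another, and merge into multinucleated myotubes. The membranes are joined by 2 muscle-specific proteins, myomaker (*Mymk*), needed on both partners for mixing of the outer lipid layers, and the micropeptide myomerger (*Mymx*), which helps to open the fusion pore. Before this step, cadherins and immunoglobulin-type adhesion molecules hold the cells together, with CDON and BOC as co-receptors beside the cadherins. The ferlins myoferlin and dysferlin take part in vesicle fusion at the membrane, and dysferlin and caveolin-3 are known for membrane repair and membrane organization in mature fibers.

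Total counts on genes lay between 22520404 and 27351766 per sample, with a median of 24312732. Values are given as CPM, read counts scaled to library size by edgeR's TMM method, and a gene is called changed at an adjusted p of at most 0.05 in edgeR's quasi-likelihood test over all 14499 genes. The 3 Geltrex™ libraries were closer to each other than other replicates were. The chi-square of their counts per degree of freedom was 2.18 to 4.54 between pairs, against 7.73 to 65.1 in the other groups, and values above 1 exceed counting noise. Collagen I replicate 3 stood farthest from its group, with 44.7 and 65.1. In each library, myotube genes were well expressed. The summed level of 12 myotube markers was 11641 to 12903 CPM in the control, 11889 to 13088 on Collagen I, 3838 to 4332 on fibronectin, and 5367 to 5858 on Geltrex™. A list of 12 myoblast and proliferation markers pooled *Myf5*, *Pax7*, and *Myod1* with cell cycle genes, so its sum is not of myoblast genes alone. It came to 408 to 479 CPM in the control, 365 to 407 on Collagen I, 847 to 1055 on fibronectin, and 882 to 947 on Geltrex™. The part of this difference in the results below was not tested. In RNA from a whole culture, fewer cells of a type and less RNA per cell cannot be told apart.

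The 10 genes did not move as a block. *Mymk*, *Mymx*, *Dysf*, and *Cav3* fell on fibronectin and on Geltrex™ to between 0.239 and 0.434 of the control, *Ncam1* fell by less, and *Boc* rose. *Cdh2* and *Cdon* were called lower on Geltrex™ and *Cdh15* on fibronectin, and *Myof* was called on neither. On Collagen I, *Cdon* was the only gene called relative to the control. The calls of *Boc* and *Cdh15* on fibronectin, and of *Cdon* on Collagen I and Geltrex™, were lost without some single samples, as given below. Of the 10 genes, 7 were called on fibronectin against the control (31.9% of all genes tested), 6 of them lower (14.7% of all genes) and 1 higher (17.1%). On Geltrex™, 8 were called (33.0% of all genes), 7 lower (16.6%) and 1 higher (16.4%). On Collagen I, 1 was called (1.12% of all genes), 1 lower (0.917%) and 0 higher (0.200%). Besides *Cdon*, 3 of the 10 had an unadjusted edgeR p under 0.05, as had 2143 of the 14499 genes tested. DESeq2 also called *Ncam1*, with 3.45% of all genes called. The median log2 fold change of the 10 genes against the control was −0.25 on Collagen I, −0.41 on fibronectin, and −0.66 on Geltrex™, beside −0.0031, −0.016, and −0.012 over all genes tested. These 3 comparisons share the control samples.

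**Figure D1:**
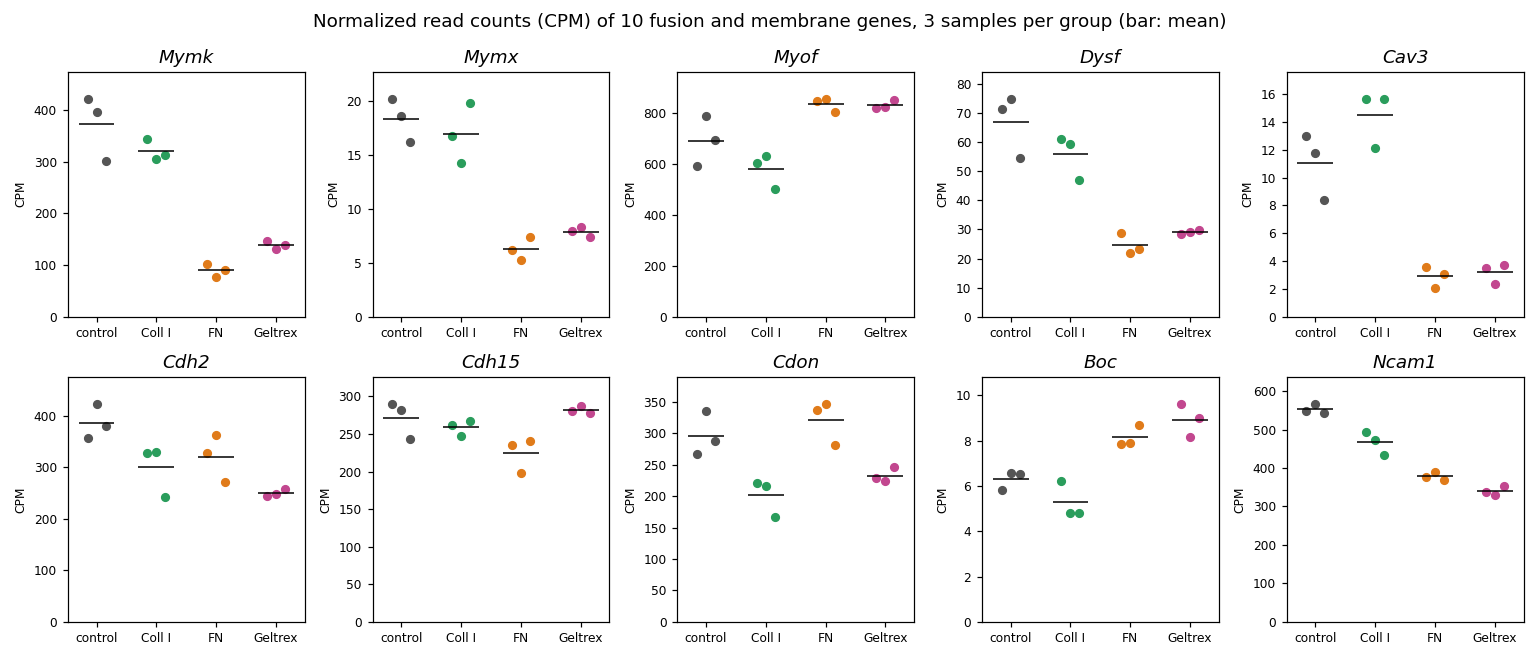
Normalized read counts of the 10 genes (y axis, CPM, starting at 0) in each of 12 samples, by group (x axis; Coll I is Collagen I and FN is fibronectin); points are samples and bars the mean of 3. *Mymk*, *Mymx*, *Dysf*, and *Cav3* lie lower in every fibronectin and Geltrex™ sample than in any control or Collagen I sample, whereas *Myof* and *Boc* lie higher there.

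*Mymk* (ENSMUSG00000009214, chr2:27061636-27072179, minus strand, GENCODE M21 on GRCm38) had 422, 397, and 303 CPM in the control samples and 344, 305, and 313 CPM on Collagen I. It had 102, 76.4, and 89.9 CPM on fibronectin and 147, 130, and 138 CPM on Geltrex™. The control and Collagen I samples overlapped, every sample on the other coatings was below them, and the fibronectin samples were all below the Geltrex™ samples. Relative to the control (374 ± 62.8 CPM, SD, n = 3), *Mymk* was 4.18-fold lower on fibronectin (log2 fold change −2.06 ± 0.12, SE, edgeR adjusted p = 1.3e-08) and 2.70-fold lower on Geltrex™ (−1.43 ± 0.12, adjusted p = 2.9e-07). It was higher on Geltrex™ than on fibronectin by 1.55-fold (log2 fold change 0.63 ± 0.12, edgeR adjusted p = 0.0016). On Collagen I the difference from the control was −0.22 on the log2 scale, with a 95% confidence interval of −0.47 to 0.03, and did not pass the test (edgeR adjusted p = 0.40).

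*Mymx* (ENSMUSG00000079471, chr17:45600971-45602102, minus strand), the partner of *Mymk* in fusion, was measured at 20.2, 18.6, and 16.2 CPM in the control and at 16.7, 14.2, and 19.8 CPM on Collagen I. On fibronectin it was at 6.17, 5.23, and 7.38 CPM, and on Geltrex™ at 7.94, 8.28, and 7.39 CPM. These groups show the same order as for *Mymk*, with the highest fibronectin sample next to the lowest Geltrex™ sample. The values rest on 125 to 508 counts per sample. *Mymx* fell 2.92-fold on fibronectin (log2 fold change −1.55 ± 0.15, edgeR adjusted p = 1.2e-06) and 2.33-fold on Geltrex™ (−1.22 ± 0.14, adjusted p = 9.3e-06). Between the 2 coatings the difference was 0.33 on the log2 scale (95% confidence interval 0.0035 to 0.66) and missed the threshold (edgeR adjusted p = 0.15). On Collagen I it was −0.12 from the control (−0.41 to 0.17, adjusted p = 0.72).

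*Cav3* (ENSMUSG00000062694, chr6:112459505-112472872, plus strand) encodes the muscle form of caveolin, the coat protein of membrane pits called caveolae. It had 13.0, 11.7, and 8.37 CPM in the control and 15.6, 12.2, and 15.7 CPM on Collagen I. On fibronectin it had 3.57, 2.05, and 3.07 CPM, and on Geltrex™ 3.46, 2.35, and 3.74 CPM, with no sample near the other 2 groups. The values rest on 49 to 363 counts per sample, and the coefficient of variation within a group was 13.9% to 26.7%. It was 3.79-fold lower than the control on fibronectin (log2 fold change −1.92 ± 0.22, edgeR adjusted p = 7.6e-06) and 3.48-fold lower on Geltrex™ (−1.80 ± 0.22, adjusted p = 1.1e-05). On Collagen I it was 0.39 above the control on the log2 scale, with an interval of −0.018 to 0.79, and was not called (edgeR adjusted p = 0.36). Against Collagen I the gaps were 4.96-fold for fibronectin and 4.55-fold for Geltrex™ (log2 fold changes of Collagen I over them 2.31 ± 0.22 and 2.19 ± 0.22, edgeR adjusted p = 8.1e-07 and 1.2e-06), larger in estimate than those of the other 9 genes.

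The 250 bases before the start that RefSeq's promoter table on GRCm38.p6 uses were examined, since *Cav3* fell together with *Mymk*, *Mymx*, and *Dysf*. Windows of 5 of the 10 genes, matched by symbol, were searched, namely *Myof*, *Dysf*, *Cav3*, *Cdh15*, and *Cdon*. *Cdh2* was left out of this search, and the table had no entry by symbol for *Mymk*, *Mymx*, *Boc*, and *Ncam1*. The motif searched was the E-box CANNTG, the core letters bound by myogenic factors of the MyoD family, which reads the same on both strands. RefSeq's start differs from the GENCODE gene boundary printed here for *Dysf*, *Cdh15*, and *Cdon*, whose windows lie wholly or partly inside the gene, and is the same for *Cav3* and *Myof*. *Cav3*, which fell, and *Myof*, which did not, are shown with each E-box in capitals, 5′ to 3′ on the strand of the gene. They lie at chr6:112459255-112459504 (plus strand) and chr19:38043578-38043827 (minus strand).
Cav3: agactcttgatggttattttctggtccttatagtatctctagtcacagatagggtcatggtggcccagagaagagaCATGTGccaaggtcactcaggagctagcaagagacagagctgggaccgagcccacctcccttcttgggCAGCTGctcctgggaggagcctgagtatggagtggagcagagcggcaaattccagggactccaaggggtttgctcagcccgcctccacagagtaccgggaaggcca
Myof: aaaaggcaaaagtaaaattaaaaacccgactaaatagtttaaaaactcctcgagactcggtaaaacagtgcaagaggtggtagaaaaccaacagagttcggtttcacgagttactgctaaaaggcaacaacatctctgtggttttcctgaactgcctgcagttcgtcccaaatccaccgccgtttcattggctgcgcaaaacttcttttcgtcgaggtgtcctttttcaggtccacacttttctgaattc
The *Cav3* window held 2 matches, of which 1 was CAGCTG, and the *Myof* window held 0. Windows of *Cdh15* held 3 matches, and those of *Dysf* and *Cdon* held 0. Of 32851 windows of this length in the table, 66.2% held 1 or more matches, 31.8% held 2 or more, and 12.2% held 3 or more, and CAGCTG was in 13% of them. A match describes these letters only, and a window without one says nothing about binding elsewhere.

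The ferlins went different ways. *Dysf* (ENSMUSG00000033788, chr6:84008590-84211060, plus strand), dysferlin, had 71.6, 74.9, and 54.5 CPM in the control and 61.1, 59.4, and 47.2 CPM on Collagen I. It had 28.8, 21.8, and 23.2 CPM on fibronectin and 28.6, 29.0, and 29.7 CPM on Geltrex™. All samples of these last 2 groups lay below all others. It was 2.72-fold lower than the control on fibronectin (log2 fold change −1.44 ± 0.13, edgeR adjusted p = 8.5e-07) and 2.30-fold lower on Geltrex™ (−1.20 ± 0.13, adjusted p = 3.9e-06). Collagen I differed from the control by −0.26 on the log2 scale (95% confidence interval −0.53 to 0.0087, edgeR adjusted p = 0.35). Exons of antisense genes cover 1.26% and 4.23% of the *Dysf* exons. These genes had 10 and 35 counts over all samples, against at least 521 for *Dysf* in any 1 sample. The strand setting of the counts is not given, so this does not show how many *Dysf* reads lay in the overlaps.

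*Myof* (ENSMUSG00000048612, chr19:37899036-38043577, minus strand), myoferlin, is the ferlin of the fusing myoblast. It had 592, 786, and 691 CPM in the control and 604, 630, and 500 CPM on Collagen I. It had 847, 853, and 804 CPM on fibronectin and 817, 822, and 851 CPM on Geltrex™, so every sample on these coatings was above every control sample. The difference from the control was nevertheless at the edge of the test, 0.28 ± 0.10 on the log2 scale on fibronectin (edgeR adjusted p = 0.053) and 0.27 ± 0.10 on Geltrex™ (adjusted p = 0.059). DESeq2 called both, at adjusted p = 0.034 and 0.048, and so did edgeR without control replicate 2 (0.013 and 0.014) or Collagen I replicate 3 (0.031 and 0.032). Relative to Collagen I, *Myof* was higher on fibronectin by 1.44-fold and on Geltrex™ by 1.44-fold (log2 fold changes of Collagen I over them −0.53 ± 0.10 and −0.52 ± 0.10, edgeR adjusted p = 0.00081 and 0.0011). Between fibronectin and Geltrex™ it differed by −0.0081 (95% confidence interval −0.23 to 0.21).

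**Figure D2:**
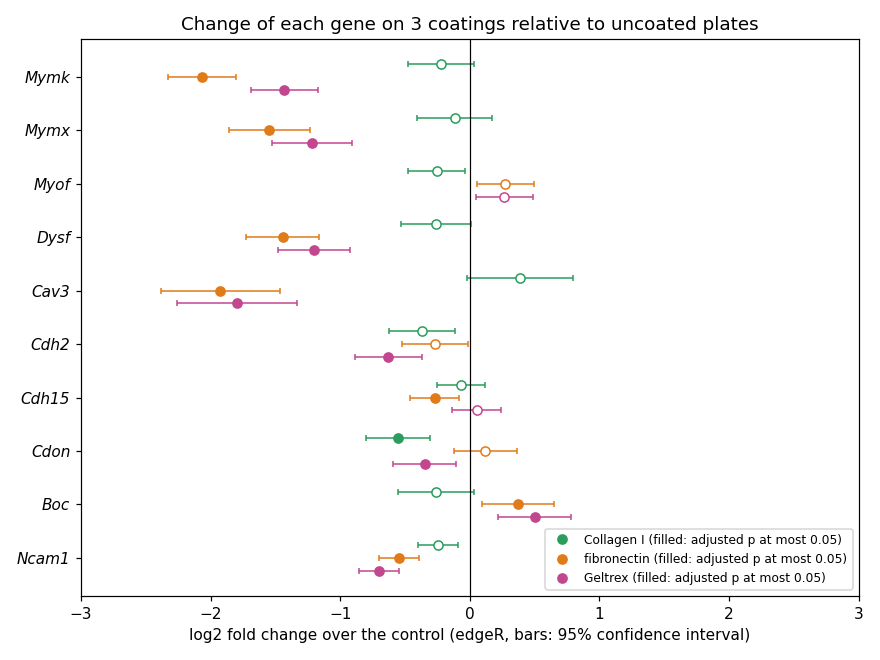
Log2 fold change of each gene over the control (x axis) in edgeR's fit, for Collagen I, fibronectin, and Geltrex™ (colors), with 95% confidence intervals as bars and filled points for an adjusted p of at most 0.05. On fibronectin and Geltrex™ *Mymk*, *Mymx*, *Dysf*, and *Cav3* lie beyond −1, *Boc* is above 0, and the intervals of *Myof* lie above 0 without a call.

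To compare paired genes without scaling between libraries, the log2 ratio of their counts per kb of exon was taken within each library, for 4 pairs. The *Myof*/*Dysf* ratio averaged 2.77 ± 0.31 (SD, n = 3) in the control, 2.77 ± 0.059 on Collagen I, 4.49 ± 0.21 on fibronectin, and 4.23 ± 0.0078 on Geltrex™, that is, from 6.82 times as much *Myof* per kb in the control to 22.5 times on fibronectin. The ratios of the first 2 groups, at 2.45 to 3.07, did not overlap with those of the last 2, at 4.23 to 4.69. A two-sided exact permutation test of the F statistic over all 369600 assignments of samples to groups gave p = 0.0018, or 0.0073 after adjustment over the 4 ratios. The *Cdon*/*Boc* ratio was 4.75 ± 0.11 in the control, 4.46 ± 0.21 on Collagen I, 4.50 ± 0.24 on fibronectin, and 3.91 ± 0.12 on Geltrex™ (exact permutation p = 0.0056, adjusted 0.011), and every Geltrex™ sample was below every other sample.

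The *Mymk*/*Mymx* ratio, 3.78 ± 0.10 in the control, 3.70 ± 0.24 on Collagen I, 3.28 ± 0.22 on fibronectin, and 3.58 ± 0.14 on Geltrex™, narrowly missed the threshold (exact permutation p = 0.054, adjusted 0.054). The fibronectin samples, at 3.05 to 3.48, overlapped with the Collagen I and Geltrex™ samples. For *Cdh2*/*Cdh15* the means were −0.80 ± 0.18, −1.11 ± 0.30, −0.80 ± 0.35, and −1.48 ± 0.051 in the same order of groups (exact permutation p = 0.038, adjusted 0.0502). With a pseudocount of 5 counts in place of 0.5, both had an adjusted exact permutation p of 0.041.

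**Figure D3:**
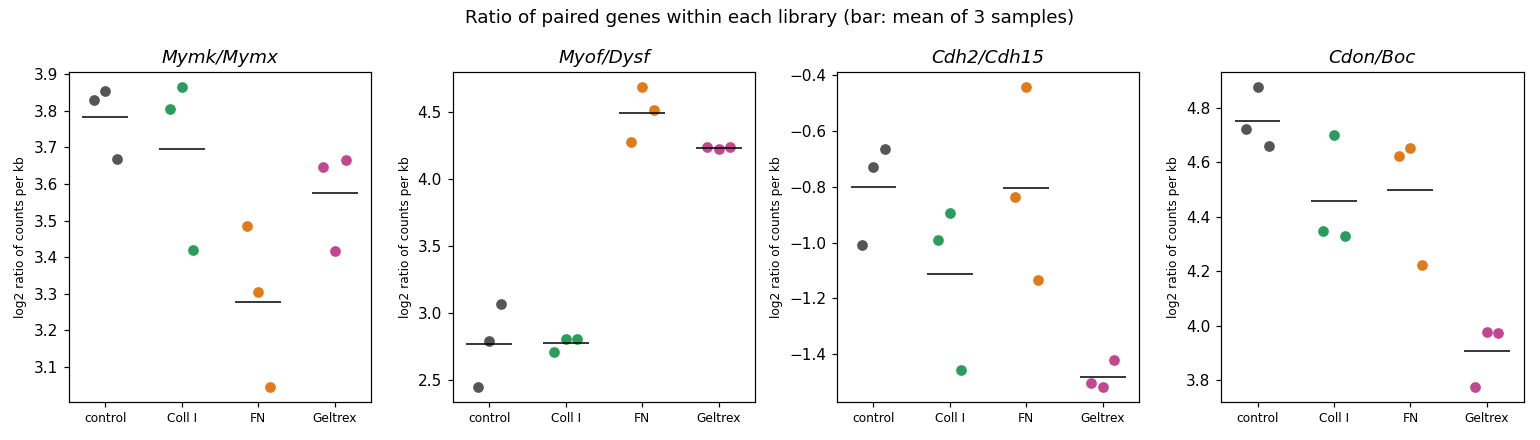
Log2 ratio of counts per kb of exon within each library (y axis) for 4 gene pairs, by group (x axis; Coll I is Collagen I and FN is fibronectin), with points for samples and bars for the mean of 3. The *Myof*/*Dysf* points fall at 2.45 to 3.07 in the control and on Collagen I and at 4.23 to 4.69 on fibronectin and Geltrex™, and the lowest *Cdon*/*Boc* points are the 3 Geltrex™ samples.

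Among the cadherins, which bind the same kind of molecule on the neighboring cell, the differences were small. *Cdh2* (ENSMUSG00000024304, chr18:16588877-16809246, minus strand), N-cadherin, had 357, 423, and 380 CPM in the control and 327, 331, and 242 CPM on Collagen I. It had 328, 363, and 272 CPM on fibronectin and 245, 248, and 257 CPM on Geltrex™. Every Geltrex™ sample was below every control sample, and the gene was 1.55-fold lower (log2 fold change −0.63 ± 0.12, edgeR adjusted p = 0.00082). Fibronectin overlapped with the control and was at −0.27 (95% confidence interval −0.52 to −0.013, edgeR adjusted p = 0.10). Every Collagen I sample was also below every control sample, with a log2 fold change of −0.37 (−0.62 to −0.11) that did not pass the test (edgeR adjusted p = 0.16) but did with no filter on low counts (0.011). Geltrex™ was below fibronectin by −0.36 ± 0.12 at the edge of the threshold (edgeR adjusted p = 0.048), and this call was lost without control replicate 2 or 3, Collagen I replicate 1, fibronectin replicate 1 or 2, or any 1 Geltrex™ sample (adjusted p between 0.052 and 0.21), and with RLE normalization (0.053).

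*Cdh15* (ENSMUSG00000031962, chr8:122847966-122867397, plus strand), M-cadherin, is the cadherin largely restricted to the muscle lineage. It had 290, 282, and 243 CPM in the control, 262, 247, and 268 CPM on Collagen I, 236, 199, and 241 CPM on fibronectin, and 280, 287, and 278 CPM on Geltrex™. All fibronectin samples were just below the lowest control sample, while Geltrex™ lay within the control range. On fibronectin it was 1.21-fold lower than the control (log2 fold change −0.27 ± 0.088, edgeR adjusted p = 0.029) and lower than on Geltrex™ by 1.25-fold (Geltrex™ over fibronectin 0.32 ± 0.088, adjusted p = 0.017). The first call was lost without control replicate 1 or 2 or fibronectin replicate 2 (adjusted p = 0.12, 0.088, and 0.14) and with only these 2 groups in the fit (0.067), and the second without fibronectin replicate 2 or any 1 Geltrex™ sample (0.051 to 0.088). On Geltrex™ the difference from the control was 0.053 (95% confidence interval −0.13 to 0.24, edgeR adjusted p = 0.69).

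*Cdon* (ENSMUSG00000038119, chr9:35421128-35507652, plus strand) encodes a receptor of the immunoglobulin family that works with cadherins in promyogenic signaling and with Hedgehog ligands. It had 266, 335, and 287 CPM in the control, 221, 217, and 167 CPM on Collagen I, 337, 346, and 282 CPM on fibronectin, and 229, 223, and 246 CPM on Geltrex™. The Collagen I and Geltrex™ samples were all below the control samples, and the fibronectin samples overlapped with the control. It was 1.47-fold lower than the control on Collagen I (log2 fold change −0.56 ± 0.12, edgeR adjusted p = 0.028) and 1.27-fold lower on Geltrex™ (−0.35 ± 0.11, adjusted p = 0.029). The Collagen I call was lost without control replicate 2 or 3 or any 1 Collagen I or Geltrex™ sample, with adjusted p between 0.052 and 0.16, although the log2 fold change stayed between −0.63 and −0.45. The Geltrex™ call was lost without control replicate 2 (adjusted p = 0.15) and without Geltrex™ replicates 1 or 2 (0.10 and 0.12). The gap between Collagen I and fibronectin was wider, with *Cdon* 1.59-fold lower on Collagen I (−0.67 ± 0.12, edgeR adjusted p = 0.00028). On Geltrex™ it was 1.38-fold lower than on fibronectin (−0.47 ± 0.11, adjusted p = 0.0095), a call lost without Geltrex™ replicate 2 (adjusted p = 0.054).

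*Boc* (ENSMUSG00000022687, chr16:44485049-44558897, minus strand), the relative of CDON in the same receptor complexes, was scarce, with 111 to 225 counts per sample. It had 5.81, 6.57, and 6.54 CPM in the control, 6.24, 4.79, and 4.79 CPM on Collagen I, 7.87, 7.91, and 8.70 CPM on fibronectin, and 9.61, 8.16, and 9.02 CPM on Geltrex™. Fibronectin and Geltrex™ samples were all above the other 2 groups. It rose 1.42-fold over the control on Geltrex™ (log2 fold change 0.50 ± 0.13, edgeR adjusted p = 0.0083) and 1.29-fold on fibronectin (0.37 ± 0.13, adjusted p = 0.042). The fibronectin call was lost without any 1 control or fibronectin sample or Geltrex™ replicate 1 or 3 (adjusted p between 0.052 and 0.15). It was also lost when low counts were not filtered (0.077), when 10 counts were required in each sample (0.054), and when the fit held only these 2 groups (0.078). Relative to Collagen I the differences were larger, with *Boc* 1.55-fold higher on fibronectin and 1.69-fold higher on Geltrex™ (Collagen I over them −0.63 ± 0.13 and −0.76 ± 0.13, edgeR adjusted p = 0.0015 and 0.00040). On Collagen I *Boc* was at −0.26 from the control (95% confidence interval −0.55 to 0.031, edgeR adjusted p = 0.39).

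*Ncam1* (ENSMUSG00000039542, chr9:49502136-49798925, minus strand), the neural cell adhesion molecule found on myoblasts and young myotubes, had coefficients of variation of 2.11% to 6.30% within groups. It had 547, 566, and 544 CPM in the control, 493, 473, and 435 CPM on Collagen I, 378, 390, and 368 CPM on fibronectin, and 338, 330, and 352 CPM on Geltrex™. These 4 groups formed a ladder without overlap. *Ncam1* was 1.46-fold lower than the control on fibronectin (log2 fold change −0.54 ± 0.072, edgeR adjusted p = 3.9e-05) and 1.63-fold lower on Geltrex™ (−0.70 ± 0.073, adjusted p = 2.2e-06). The neighboring steps of the ladder were not all resolved. Collagen I differed from the control by −0.24 (95% confidence interval −0.40 to −0.090, edgeR adjusted p = 0.11, DESeq2 adjusted p = 0.016) and from fibronectin by 0.30 ± 0.072 (edgeR adjusted p = 0.0035). Geltrex™ differed from fibronectin by −0.16 (−0.31 to −0.0030, adjusted p = 0.14). An antisense gene overlaps 4.81% of the *Ncam1* exons, and it had 107 counts over all samples against at least 7810 for *Ncam1* in any 1 sample.

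Between the coatings, Collagen I set apart most of the genes from fibronectin, with 8 of 10 called (45.0% of all genes), 5 higher on Collagen I (22.1%) and 3 lower (22.9%). The higher genes were *Mymk*, *Mymx*, *Dysf*, *Cav3*, and *Ncam1*, and the lower ones *Myof*, *Cdon*, and *Boc*. *Mymk* was 3.59-fold higher (log2 fold change 1.84 ± 0.12, edgeR adjusted p = 2.4e-08), *Mymx* 2.70-fold (1.43 ± 0.15, 2.1e-06), and *Dysf* 2.27-fold (1.18 ± 0.13, 4.8e-06). Against Geltrex™, 7 were called (37.1% of all genes), 5 higher on Collagen I (18.2%) and 2 lower (19.0%). The same 5 genes were higher, and *Myof* and *Boc* were lower. *Mymk* was 2.32-fold higher on Collagen I (log2 fold change 1.21 ± 0.12, edgeR adjusted p = 1.4e-06), *Mymx* 2.15-fold (1.10 ± 0.15, 2.7e-05), *Dysf* 1.92-fold (0.94 ± 0.13, 4.5e-05), and *Ncam1* 1.37-fold (0.46 ± 0.072, 0.00015).

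Geltrex™ and fibronectin differed in 4 of 10 genes (19.3% of all genes), with *Mymk* and *Cdh15* higher on Geltrex™ (9.06% of all genes were higher) and *Cdh2* and *Cdon* lower (10.3%). When the close Geltrex™ libraries were summed into 1 sample, an alternative added after seeing the data in which the lone sample is assumed to vary like the other groups, 0 of these 4 calls remained and 703 of 15666 genes, 4.49%, were called. The log2 fold changes stayed at 0.63 for *Mymk*, 0.32 for *Cdh15*, −0.36 for *Cdh2*, and −0.47 for *Cdon*, and the adjusted p values were 0.066, 0.28, 0.40, and 0.21. With the same summing, 5 of the 8 calls against the control remained (13.3% of all genes), and *Cdh2*, *Cdon*, and *Boc* were lost at adjusted p of 0.057, 0.28, and 0.091 with log2 fold changes of −0.62, −0.34, and 0.51. All 7 calls between Collagen I and Geltrex™ passed (13.6% of all genes). With a fold change of at least 2 required as well, the calls were 0 of 10 for Collagen I against the control (0.131% of all genes), 4 for fibronectin (6.66%), 4 for Geltrex™ (9.14%), 4 for Collagen I against fibronectin (8.46%), 3 for Collagen I against Geltrex™ (9.32%), and 0 for Geltrex™ against fibronectin (3.98%). The 4 genes were *Mymk*, *Mymx*, *Dysf*, and *Cav3* each time, and *Dysf* fell short of it between Collagen I and Geltrex™.

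The 10 genes are not the whole of these pathways, and companion lists were read in the same fit, as counts beside the shares of all genes given above. Of 12 myotube markers, 12 were lower than the control on fibronectin (median log2 fold change −1.85) and 12 on Geltrex™ (−1.49). Their ranges, −2.19 to −0.65 and −1.82 to −0.28, held the values of *Mymk*, *Mymx*, *Dysf*, and *Cav3*. Among them *Myh8*, a neonatal myosin heavy chain, was at −2.19 ± 0.17 on fibronectin (edgeR adjusted p = 1.5e-07), and *Myog*, the differentiation factor myogenin, was at −1.76 ± 0.13 on Geltrex™ (5.1e-08). Of 12 myoblast and proliferation markers, 9 were higher on each of the 2 coatings, and 1 was lower on Geltrex™. The list holds the myoblast genes *Myf5*, *Pax7*, and *Myod1* beside genes of the cell cycle, so these counts do not show the myoblast genes on their own. Its log2 fold changes ran from −0.19 to 2.01 on fibronectin and from −1.35 to 1.98 on Geltrex™. The mitotic kinase gene *Bub1* was at 2.01 ± 0.14 and 1.98 ± 0.14 (edgeR adjusted p = 5.2e-08 and 4.9e-08). Against fibronectin, 6 of the 12 myotube markers were higher on Geltrex™ and none was lower, in the direction of *Mymk*.

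Genes of fusion guidance and actin remodeling went both ways. Of 30 tested, 11 were higher and 2 lower than the control on fibronectin (median 0.20), and 9 were higher and 7 lower on Geltrex™ (median 0.060). *Dock1*, an activator of the GTPase Rac, was higher on both, at 0.73 ± 0.11 and 0.70 ± 0.11 on the log2 scale (edgeR adjusted p = 0.00015 and 0.00017). *Npnt*, the matrix protein nephronectin, was lower on both, at −0.81 ± 0.11 and −0.74 ± 0.11 (adjusted p = 4.5e-05 and 7.5e-05). On Collagen I 1 gene of this list was called against the control, *Adam12*, a membrane metalloprotease of fusing myoblasts, at −1.23 ± 0.20 (edgeR adjusted p = 0.0061). Its level was low, with means of 1.77 CPM on Collagen I and 4.15 CPM in the control.

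Among 23 tested partners in membrane repair and vesicle traffic, 5 were higher and 7 lower than the control on fibronectin, and 4 were higher and 3 lower on Geltrex™, with medians of 0.075 and 0.026. *Trim72*, which encodes the repair protein MG53, fell like *Dysf* and *Cav3*, by 3.68-fold on fibronectin (log2 fold change −1.88 ± 0.22, edgeR adjusted p = 1.0e-05) and 3.02-fold on Geltrex™ (−1.59 ± 0.22, adjusted p = 3.5e-05). *Bin1*, a membrane-bending protein of the T-tubule, fell 1.88-fold and 1.40-fold (−0.91 ± 0.11 and −0.48 ± 0.11, edgeR adjusted p = 1.8e-05 and 0.0034).

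The caveolae list, without *Cav3* itself, split by member. Of 9 tested, 3 were higher and 3 lower on fibronectin than in the control, and 4 were higher and 4 lower on Geltrex™. *Cavin4*, the muscle cavin, and *Pacsin3*, a membrane-curving protein, were lower on fibronectin (−0.84 ± 0.11 and −0.97 ± 0.15, edgeR adjusted p = 4.1e-05 and 0.00012). *Cavin2* was higher on Geltrex™ by 2.01-fold (1.01 ± 0.096, edgeR adjusted p = 9.1e-07). *Cav1* and *Cav2*, the caveolins found in most cell types, were taken up here as the paralogs of *Cav3* after their values were seen. They were higher than the control on fibronectin (0.51 and 0.74 on the log2 scale, edgeR adjusted p = 0.00031 and 6.1e-05) and on Geltrex™ (0.45 and 0.70, adjusted p = 0.00071 and 7.5e-05), while *Cav3* was lower on both.

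For other cadherins, catenins, and nectins, 11 were tested. On fibronectin 3 were higher and 2 lower than in the control, and on Geltrex™ 2 were higher and 2 lower. *Jup*, the catenin plakoglobin, fell on both (−0.61 ± 0.075 and −0.75 ± 0.076, edgeR adjusted p = 1.9e-05 and 1.9e-06), as did *Cdh13*, T-cadherin (−0.63 ± 0.071 and −0.39 ± 0.070, adjusted p = 7.1e-06 and 0.00049). *Cdh11*, a mesenchymal cadherin, was the 1 gene of this list called on Collagen I, at −0.63 ± 0.14 (edgeR adjusted p = 0.039).

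Partners of CDON and BOC and genes of the Hedgehog pathway were more often higher than lower. Of 15 tested, 8 were higher and 0 lower on fibronectin (median 0.31), and 7 were higher and 3 lower on Geltrex™ (median 0.25). *Gli3*, a transcription factor of the pathway, was 1.60-fold higher on fibronectin and 2.02-fold higher on Geltrex™ (0.68 ± 0.11 and 1.01 ± 0.11, edgeR adjusted p = 0.00020 and 2.8e-06). Between these 2 coatings the list split, with 3 of 15 genes higher on Geltrex™ (9.06% of all genes) and 4 lower (10.3%). Among the lower was *Ptch1*, the Hedgehog receptor and a target of the pathway (Geltrex™ over fibronectin −0.75 ± 0.088, edgeR adjusted p = 1.9e-05), the same direction as *Cdon*. Of 7 tested NCAM partners, 1 was higher and 2 were lower on fibronectin, and 0 were higher and 1 lower on Geltrex™. The lower gene on both was *Prnp*, the prion protein, which binds NCAM (−0.50 ± 0.082 and −0.63 ± 0.082, edgeR adjusted p = 0.00028 and 2.2e-05).

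**Figure D4:**
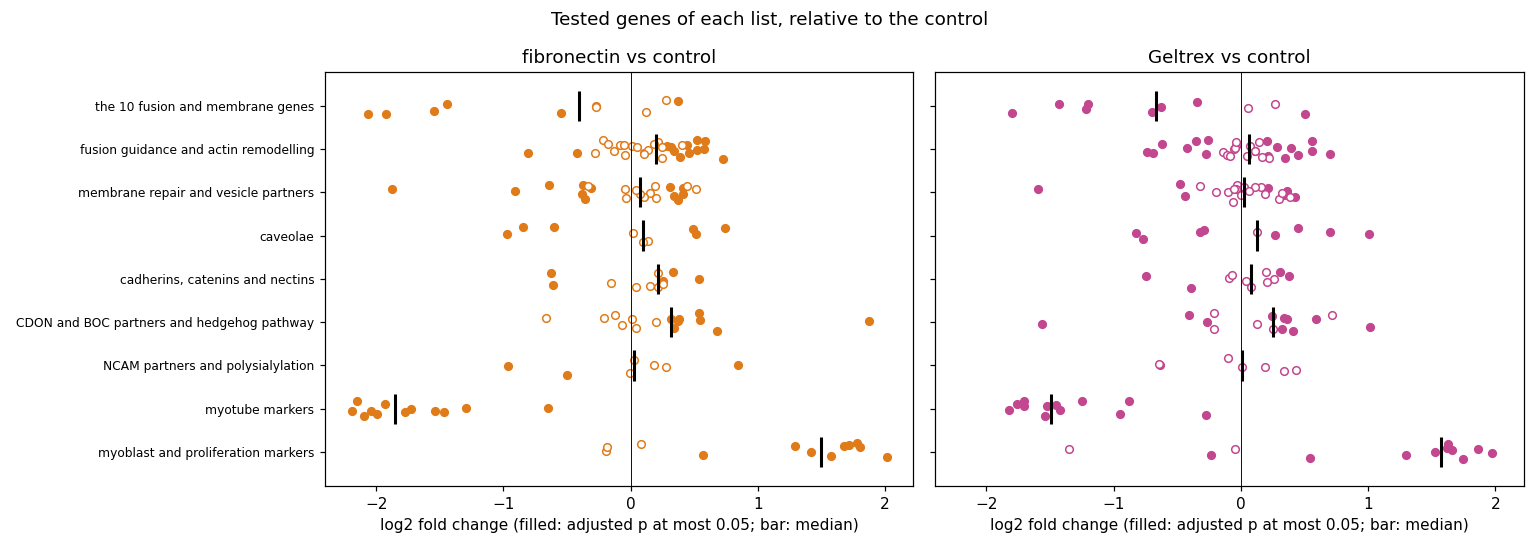
Log2 fold change over the control (x axis) of the tested genes of each list (rows), for fibronectin (left) and Geltrex™ (right); each point is 1 gene, filled for an adjusted p of at most 0.05, and bars are medians. The 10 genes have a median of −0.41 and −0.66, the myotube markers −1.85 and −1.49, and the other companion lists between 0.012 and 0.31, apart from the myoblast and proliferation markers at 1.50 and 1.57.

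Markers of other cell types were read for the same libraries. The summed level of 5 endothelial markers was at most 3.42 CPM, that of 5 macrophage and leukocyte markers at most 1.59 CPM, that of 5 adipocyte markers at most 0.431 CPM, and that of 5 Schwann and neural markers at most 3.06 CPM in any sample. Of 5 fibroblast markers, 2 were at 0 in all 12 samples, and the others summed to 1957 to 2480 CPM in the control and 1361 to 1406 CPM on Geltrex™, nearly all of it *Dcn*, the matrix proteoglycan decorin, with a mean of 2010 CPM in the control. *Dcn* was lower than the control on fibronectin (−0.27 ± 0.096, edgeR adjusted p = 0.042) and on Geltrex™ (−0.61 ± 0.096, adjusted p = 0.00015). *Lum*, the related proteoglycan lumican, was lower still, at −0.75 ± 0.14 on fibronectin (edgeR adjusted p = 0.00097) and −2.24 ± 0.15 on Geltrex™ (adjusted p = 3.0e-08). *Pdgfra*, a growth factor receptor, is given as the remaining marker tested, as an exception to the rule for named genes. It was at −0.047 and 0.16 and was called on neither (edgeR adjusted p = 0.79 and 0.31).

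Levels of different genes can be compared only per length, here as CPM per kb of exon. In the control *Mymk* was highest at 247 ± 41.6 (SD, n = 3), followed by *Cdh15* at 83.5 ± 7.71, *Ncam1* at 63.8 ± 1.35, *Myof* at 54.7 ± 7.69, *Cdh2* at 47.9 ± 4.12, and *Cdon* at 38.4 ± 4.59. *Mymx*, at 17.8 ± 1.96, *Cav3*, at 9.54 ± 2.07, *Dysf*, at 8.05 ± 1.32, and *Boc*, at 1.42 ± 0.097, formed the lower end. The samples of the neighbors *Myof* and *Cdh2*, and of *Cav3* and *Dysf*, overlapped. Within each control library, however, *Myof* was above *Cdh2* and *Cav3* above *Dysf*. On Collagen I *Mymk* kept the first place at 212 ± 13.7. On fibronectin *Mymk* came to 59.2 ± 8.40, below the means of *Myof*, at 66.2 ± 2.13, and *Cdh15*, at 69.2 ± 7.07. *Mymk* was below *Cdh15* in each fibronectin library, and its samples overlapped with those of *Myof*. On Geltrex™ the samples of *Mymk*, at 91.7 ± 5.36, and *Cdh15*, at 86.6 ± 1.36, overlapped. *Mymx* fell to 6.09 ± 1.05 and 7.67 ± 0.435, and *Mymk* stood at 9.71 and 11.9 times its level there, against 13.8 times in the control.

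**Figure D5:**
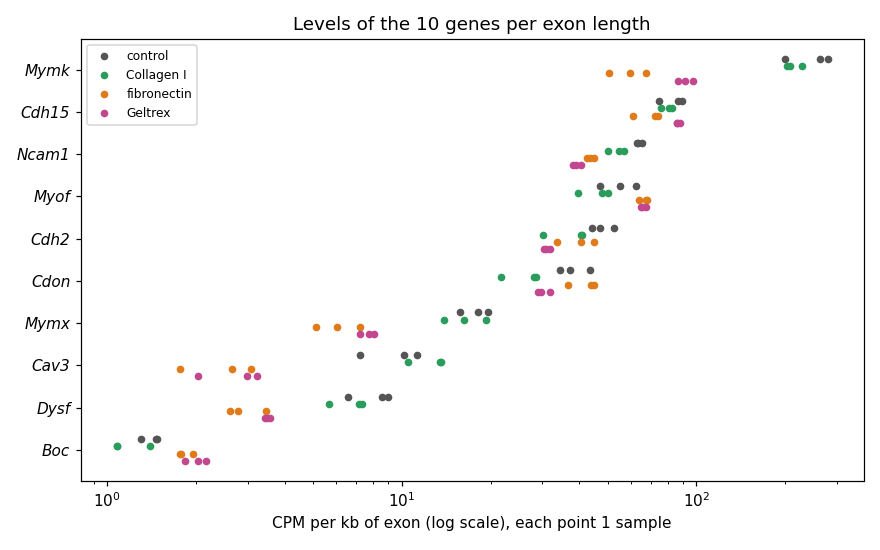
Levels of the 10 genes as CPM per kb of exon (x axis, log scale), genes in the order of their control means, each point 1 sample and each color 1 group. *Mymk* lies at a mean of 247 in the control. It falls to 59.2 on fibronectin, below the means of *Cdh15* and *Myof*, and the mean of *Boc* is the lowest in every group.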

How the data were processed

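RNA-seq of 12 samples in 4 groups was used. Trimming (Trimmomatic), alignment (HISAT2), and counting (featureCounts) were done by the authors, and what they deposited is a table of unnormalized counts of reads on each gene. The genome build, annotation, and strand setting are not given in the sources used here. All 55536 gene identifiers matched GENCODE M21 (GRCm38), which gave positions and exon lengths. Groups were taken from the treatment label. Genes were filtered with filterByExpr (minimum count 10, minimum total 15) and fitted with edgeR 4.0.16 (R 4.3.3, TMM, quasi-likelihood, all samples in 1 model with 8 residual degrees of freedom), with Benjamini-Hochberg adjustment over all genes tested. The SE of a log2 fold change is its size over the root of F. The 4 ratios were tested by exact permutation with a pseudocount of 0.5 counts. The procedure was tested on simulated data. The 10 genes and the companion lists were chosen with earlier results of these data known. All 10 genes are described, and from each list the 2 called genes of largest absolute log2 fold change with a mean of at least 1 CPM could be named, with exceptions marked. Alternatives were RLE, DESeq2 1.42.0, other filters, only the 2 groups compared, a replicate block, a fold change minimum of 2, leaving out each sample, and, added after seeing the data, summing the Geltrex™ samples. Intervals have a confidence level of 95%.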

Additional observations from a re-analysis of the deposited data

How the results depend on the processing

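The calls of *Mymk*, *Mymx*, *Dysf*, and *Cav3* on fibronectin and Geltrex™ against the control and against Collagen I held under every alternative run, apart from the fold change minimum named in the report for *Dysf*. The number of the 10 genes called for Collagen I against the control was 2 with DESeq2 (3.45% of all genes), 2 with no filter on low counts (1.98%), 0 with only the 2 groups compared (0.279%), and 0 with a fold change minimum of 2, and it was 0 to 1 without 1 sample (0.297% to 1.57%). That minimum gave 4, 4, 4, 3, and 0 for fibronectin and Geltrex™ against the control, Collagen I against fibronectin and Geltrex™, and Geltrex™ against fibronectin. Without 1 sample, the last of these counts was 1 to 4 (main 4), being 1 without Geltrex™ replicate 2 (11.8% of all genes) and 2 without Geltrex™ replicate 1 or 3 or fibronectin replicate 2 (11.6%, 12.3%, and 12.6%). With the Geltrex™ samples summed it was 0, and 5 for Geltrex™ against the control. The adjusted exact permutation p with a pseudocount of 5 counts was 0.041 for *Mymk*/*Mymx* and 0.041 for *Cdh2*/*Cdh15*, and without 1 sample it was 0.016 to 0.15 and 0.021 to 0.093. Directions reversed only for differences near 0 that were never called. These were *Cdh15* on Geltrex™ against the control without control replicate 3 (−0.020 in a range of −0.020 to 0.10 over samples left out), *Cdh2* on Collagen I against fibronectin without Collagen I replicate 3 (0.040, range −0.21 to 0.040), and, for Geltrex™ against fibronectin, *Cav3* without fibronectin replicate 2 (−0.066) or Geltrex™ replicate 3 (−0.0053) and *Myof* with at least 10 counts in every sample (0.00073), without fibronectin replicate 1 (0.0045) or 2 (0.0073), and without Geltrex™ replicate 1 (0.0062) or 2 (0.0012), with ranges of −0.066 to 0.31 and −0.034 to 0.0073. Without 1 sample, calls were gained by *Cdh2* (without Collagen I replicate 3, fibronectin against the control, adjusted p = 0.030, and Collagen I against Geltrex™, 0.00995), *Cdh15* (without fibronectin replicate 3, Collagen I against fibronectin, 0.048), and *Myof* (without Collagen I replicate 2, fibronectin against the control, 0.0498). The labels give no meaning to the replicate numbers, and no comparison had a correlation of deviations over 0.1 in all 3 same-numbered pairs. For Collagen I against fibronectin the correlations were 0.047, 0.17, and 0.23, and each of the 6 samples correlated best with its own number, a hint from the data only. For the other comparisons 0 to 3 of 6 did. The replicate block left the 6 counts of called genes within 1.5 times, with *Myof* called on fibronectin (adjusted p = 0.044) and Geltrex™ (0.048) and *Boc* no longer called on fibronectin (0.054). The causes of these shifts were not tested. Depth limits *Boc*, *Cav3*, and *Mymx* most, with as few as 111, 49, and 125 counts in a sample.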
